A study of Mus musculus with 24 samples.

Results

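The Myc sites seen only in tet-Myc/YAP livers were the Myc ChIP-seq peaks of tet-Myc/YAP that shared no base with any Myc peak called in tet-Myc, tet-YAP or wild-type livers. They were chosen by the Myc lists alone, so their Myc values are given as a description. There were 4202 such sites among the 30327 Myc peaks of tet-Myc/YAP, a share of 13.9% (Wilson 95% interval 13.5 to 14.2%). The remaining 26125 are called here the other Myc peaks. The same rule left 5598 of 32592 Myc peaks (17.2%) only in tet-Myc, 883 of 13227 (6.68%) only in tet-YAP and 625 of 4775 (13.1%) only in wild-type. Private Myc peaks were therefore no larger a share of the tet-Myc/YAP list than of the tet-Myc list.

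The lists came from ChIP-seq of whole liver of transgenic mice, with peaks on the mm9 build and 1 library per antibody and genotype. All mice carried R26-rtTA, the reverse tetracycline transactivator placed in the broadly active Rosa26 locus, and transgenes were induced for 2 days with doxycycline in the food. Livers called tet-Myc/YAP carried doxycycline-inducible Myc and YAP transgenes, tet-Myc livers only that for Myc, tet-YAP livers only that for YAP, and wild-type livers neither. The YAP transgene encodes an activated mutant of the protein. YAP lists came from tet-Myc/YAP and tet-YAP, H3K4me1 from wild-type, and Myc, TEAD, RNA polymerase II (Pol II), H3K27ac and H3K4me3 from all 4 genotypes. YAP chromatin was fixed with a protein crosslinker (DSG) before formaldehyde, and all other chromatin with formaldehyde alone. In whole liver, strong binding in few cells and weak binding in many cannot be told apart. The lists name no genes, so the liver label was not checked against marker genes.

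Myc, paired with its partner Max, recognises E-box sequences in DNA, mostly at promoters that already carry active marks. YAP is the coactivator restrained by the Hippo pathway. It has no DNA-binding domain and reaches chromatin mainly through the TEAD factors, often at enhancers. H3K27ac marks active promoters and enhancers, H3K4me3 marks promoters, and H3K4me1 is abundant at enhancers.

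The Myc library of tet-Myc/YAP was the shallowest of its kind, with 16.9 M tags, while that of tet-Myc had 20.7 M, that of tet-YAP 26.1 M and that of wild-type 29.7 M. TEAD libraries held 31.6 to 33.1 M tags, Pol II libraries 20.9 to 50.6 M with wild-type the shallowest, and YAP libraries 17.4 M in tet-Myc/YAP and 25.2 M in tet-YAP. The YAP list of tet-Myc/YAP was called against a control of 167 M tags. In the tet-YAP YAP list and all other narrow lists, the control was about as deep as the ChIP library. The part of control depth in the length and folds of the YAP lists was not tested. Peaks of 12 narrow lists had median widths of 521 to 749 bp, but those of Myc in wild-type (81 bp) and of YAP in tet-YAP (98 bp) were called with fragment sizes of 51 and 56 bp and were far narrower. Without the wild-type Myc list, 4255 sites met the rule. With the other Myc lists cut to the length of the tet-YAP list, 1698 did (12.8% of the shortened list). As each genotype had 1 library, no test between genotypes was possible, and the Wilson 95% intervals given below cover counting only. Neighbouring peaks are not independent, which these intervals do not include.

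In the Myc list that chose them, the sites were weaker than the other Myc peaks on average. Their fold enrichment over control was 1.54 to 42.53 with a median of 6.96, against a median of 11.4 in the other Myc peaks. Their median −log10 q was 10.4 against 27, their median pileup at the summit 24 tags against 42, and their median width 466 bp against 818 bp. A −log10 q of at least 40 was reached by 32 sites (0.762%) and by 34.4% of the other Myc peaks (29.7% of all). Sites just inside the rule lay 1, 4 and 7 bp from a tet-Myc Myc peak, at chr9:44318406-44318776 (fold enrichment 3.83), chr13:64263652-64264384 (6.50) and chr8:32222361-32222806 (6.47). Peaks just outside it shared 4 bp with a wild-type peak at chr13:62973114-62973502 (5.86), and 5 and 7 bp with tet-Myc peaks at chr16:31424773-31425483 (6.47) and chr14:35061235-35061678 (6.78). Gaps of up to 100 bp were found at 99 sites and overlaps of up to 100 bp at 101 other Myc peaks, so few members turned on the exact bases.

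YAP of tet-Myc/YAP was uncommon at the sites. It overlapped 388 of them (9.23%, 8.40 to 10.1%), against 9883 of the other Myc peaks (37.8%) and 33.9% of all Myc peaks of the list. TEAD of tet-Myc/YAP overlapped 2677 sites (63.7%, 62.2 to 65.1%), against 84.2% of the other Myc peaks and 81.3% of all. Sorted by both factors, 347 sites had YAP and TEAD (8.26%, against 36.7% of the other Myc peaks and 32.7% of all) and 2330 had TEAD without YAP (55.4%, against 48.6% of all). Neither was at 1484 sites (35.3%, against 14.7% of the other Myc peaks and 17.5% of all), and YAP without TEAD at 41 (0.976%, against 1.15% of all). TEAD without YAP was thus the most common state of a site. With YAP peaks of −log10 q of at least 10 alone, YAP was at 3.55% of the sites, against 19.8% of the other Myc peaks.

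**Figure D1:**
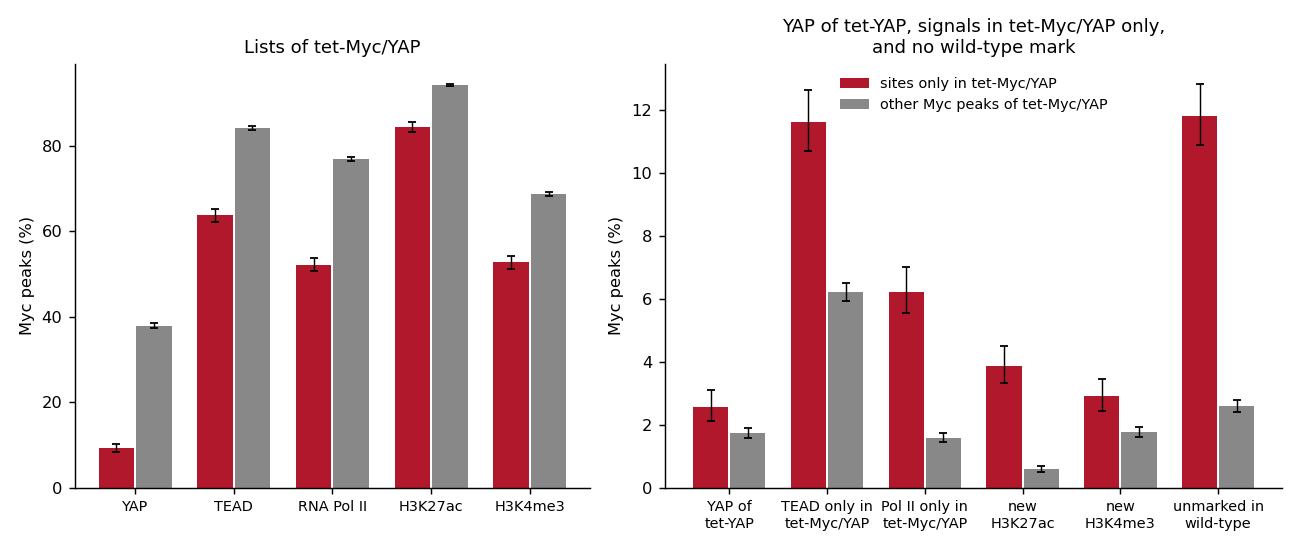
Share of Myc peaks of tet-Myc/YAP (%, bars with Wilson 95% intervals) that overlapped a peak or region of each list, for the 4202 sites (red) and the 26125 other Myc peaks (grey). YAP, TEAD, Pol II, H3K27ac and H3K4me3 of tet-Myc/YAP were all less frequent at the sites (left), though for H3K4me3 the ratio of 0.767 turned to 1.04 within classes of Myc fold and width, while all 6 classes on the right, from YAP of tet-YAP to sites unmarked in wild-type, were more frequent at them. Shares are of all peaks of a set, and TEAD, Pol II and H3K27ac of the other genotypes were more frequent at the other Myc peaks.

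The YAP shares were also set side by side within classes of Myc peak strength. In each of 6 classes of Myc fold enrichment the sites had less YAP of tet-Myc/YAP than other Myc peaks of the same class, from 8.21% against 15.9% below a fold of 6 to 25.6% (10 of 39 sites) against 59.4% at a fold of 15 or more. The crude ratio of the shares, sites over other Myc peaks, was 0.244 (95% interval 0.222 to 0.269). It was 0.436 when pooled over the fold classes by the Mantel-Haenszel formula, 0.523 over 5 classes of Myc peak width and 0.578 over both. For TEAD the ratio was 0.757 (0.739 to 0.775) crude and 0.890 over both classes. The ratios thus lay nearer to 1 within classes than crude, and below 1 in both. Sites and other Myc peaks can still differ in strength within a class, as the highest has no upper edge.

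**Figure D2:**
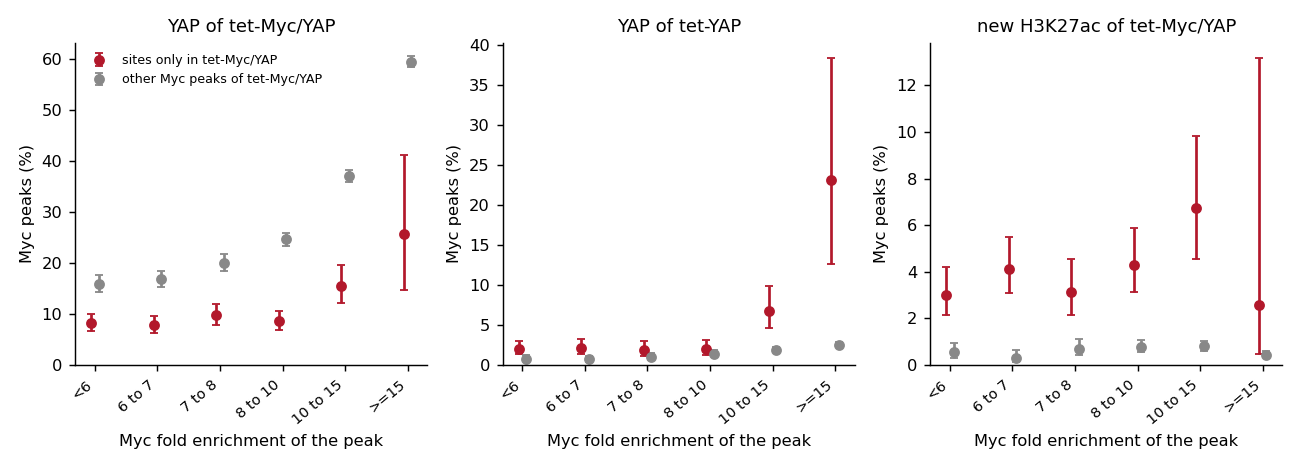
Share of Myc peaks (%, points with Wilson 95% intervals) with YAP of tet-Myc/YAP, YAP of tet-YAP and new H3K27ac of tet-Myc/YAP, by class of Myc fold enrichment, for the sites (red) and the other Myc peaks (grey). Sites had less YAP of tet-Myc/YAP in all 6 classes, and more YAP of tet-YAP and more new H3K27ac in all 6, though the highest class held 39 sites, 1 of them in new H3K27ac.

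The YAP peaks of tet-YAP livers, where no Myc transgene was present, gave the opposite picture over the sites as a whole. They overlapped 108 sites (2.57%, 2.13 to 3.09%), against 454 of the other Myc peaks (1.74%) and 1.85% of all Myc peaks. The ratio was 1.48 (1.20 to 1.82) crude, 2.56 (2.02 to 3.24) over fold classes and 3.40 (2.64 to 4.38) over fold and width classes. The share was 1.34% (0.929 to 1.93%) of sites in wild-type H3K4me3. It was 3.28% of those in wild-type H3K27ac or H3K4me1 alone. Other Myc peaks in wild-type H3K4me3 had a higher share than the sites there, though within the interval of those sites. The higher share of the sites as a whole was thus not seen at promoters, and the ratios were not pooled over position. Among sites with a Myc fold of 15 or more, 9 of 39 (23.1%, 12.6 to 38.3%) had a tet-YAP YAP peak, against 2.48% of the other Myc peaks of that class. In the mirror list, the Myc sites seen only in tet-Myc, 5 of 5598 (0.0893%) had one, against 1.57% of the other Myc peaks of tet-Myc. Of the sites seen only in tet-Myc, 5.54% had YAP of tet-Myc/YAP, against 37.1% of the other Myc peaks of tet-Myc. Myc sites private to the double transgenic thus lay at tet-YAP YAP peaks more often than did those private to tet-Myc, with intervals that do not overlap. The tet-YAP YAP list is short (1328 peaks) and its peaks are narrow. With the Myc summit required to lie inside the YAP peak, its share fell to 0.904% of the sites, against 0.371% of the other Myc peaks.

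These 108 sites had strong TEAD, as other Myc peaks with tet-YAP YAP also did. All 108 had TEAD in tet-Myc/YAP, 107 in tet-Myc and 108 in tet-YAP, against 104 in wild-type, so nearly all were TEAD sites in livers without either transgene as well. Their TEAD peaks had a median fold enrichment of 38.1 in tet-Myc/YAP, 19.5 in tet-Myc and 19.2 in tet-YAP, against 11.3 in wild-type, at the 97.9, 94.5, 97.5 and 93.2 percentile of each list. At the 454 other Myc peaks with tet-YAP YAP the medians were 32.2, 21.9, 16.8 and 13.3 in the same order, higher than at the 108 sites in tet-Myc and wild-type and lower in tet-Myc/YAP and tet-YAP. YAP was also called in tet-Myc/YAP at 67 of them (62.0%, 52.6 to 70.6%), whereas it was called again at 405 of the 454 other Myc peaks with tet-YAP YAP (89.2%). By position, 28 lay in a wild-type H3K4me3 region (25.9%), 53 lay in wild-type H3K27ac or H3K4me1 alone and 27 in none of these marks, while 76.0% of the 454 other Myc peaks lay in wild-type H3K4me3. Pol II was called at 69 of the 108 in tet-Myc/YAP (63.9%), 29 in tet-Myc (26.9%) and 40 in tet-YAP (37.0%), against 12 in wild-type (11.1%), beside 92.1%, 85.7%, 86.6% and 70.7% of the 454 other Myc peaks.

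At the 388 sites with YAP of tet-Myc/YAP, TEAD was called less often than at the other Myc peaks with YAP, but the TEAD peaks there had a higher median. The median fold enrichment of their TEAD peaks in tet-Myc/YAP was 20.5 (25th to 75th percentile 10.6 to 35.7), against 11.0 (7.19 to 18.2) at the 9883 other Myc peaks with YAP. At the 3773 sites in neither YAP list it was 9.12. TEAD was called at 347 of the 388 in tet-Myc/YAP (89.4%), 81.4% in tet-Myc and 79.9% in tet-YAP, against 79.9% in wild-type, and only in tet-Myc/YAP at 15 of them (3.87%). At the other Myc peaks with YAP the same shares were 96.9%, 90.4%, 88.6% and 89.9%, and 1.75%. The YAP peaks themselves were modest, with a median fold of 6.38 at the sites, 6.80 at the other Myc peaks and 6.04 away from Myc.

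**Figure D3:**
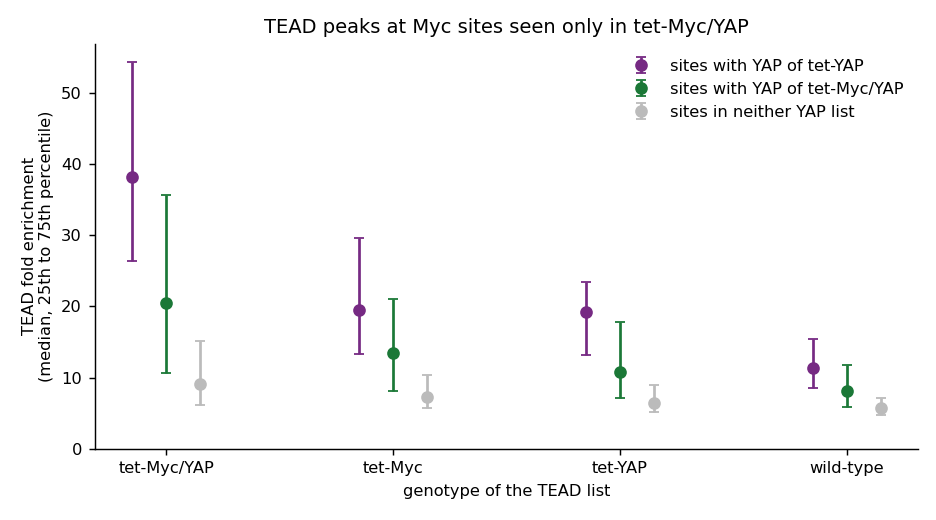
Median TEAD fold enrichment (points, with 25th to 75th percentile) of TEAD peaks at the sites in the list of each genotype, for sites with YAP of tet-YAP (108, purple), with YAP of tet-Myc/YAP (388, green) and in neither YAP list (3773, grey). In all 4 lists the order was the same, with medians of 38.1, 20.5 and 9.12 in tet-Myc/YAP and of 11.3, 8.16 and 5.79 in wild-type; the 67 sites with both kinds of YAP stand in both of the first classes.

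TEAD was called at more sites in tet-Myc/YAP than in any other genotype. The shares were 63.7% in tet-Myc/YAP, 47.2% in tet-Myc and 40.2% in tet-YAP, against 36.9% in wild-type, beside 84.2%, 72.4%, 65.3% and 68.1% of the other Myc peaks and 81.3%, 68.9%, 61.8% and 63.8% of all. The TEAD lists differ in length (52392, 44220, 32486 and 33417 peaks). With each kept at its 32486 strongest peaks the shares at the sites were 47.4%, 37.9%, 40.2% and 36.3%. The other Myc peaks then had 66.0%, 58.8%, 65.3% and 67.0%. At equal length the highest share was thus that of tet-Myc/YAP at the sites, and that of wild-type at the other Myc peaks. TEAD in all 4 genotypes was found at 1146 sites (27.3%, against 50.3% of all Myc peaks) and in none at 1351 (32.2%, against 14.6% of all). TEAD in tet-Myc/YAP only was found at 489 sites (11.6%, 10.7 to 12.6%), against 6.21% of the other Myc peaks and 6.96% of all. The ratio was 1.87 crude and 1.38 (1.24 to 1.54) over fold and width classes. With lists of equal length the share was 5.33%, against 2.80%. Of the other Myc peaks, 1623 had TEAD in tet-Myc/YAP only and 3081 (11.8%) in no genotype. Among peaks without TEAD in any other genotype, TEAD of tet-Myc/YAP was thus at a smaller share of the sites than of the other Myc peaks. YAP of tet-Myc/YAP was at 15 of these 489 sites (3.07%), fewer than at the sites as a whole. Among the sites private to tet-Myc, TEAD in tet-Myc/YAP only was found at 8.93%, against 6.36% of the other Myc peaks of tet-Myc. A higher share than at the other Myc peaks was thus not particular to the sites.

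**Figure D4:**
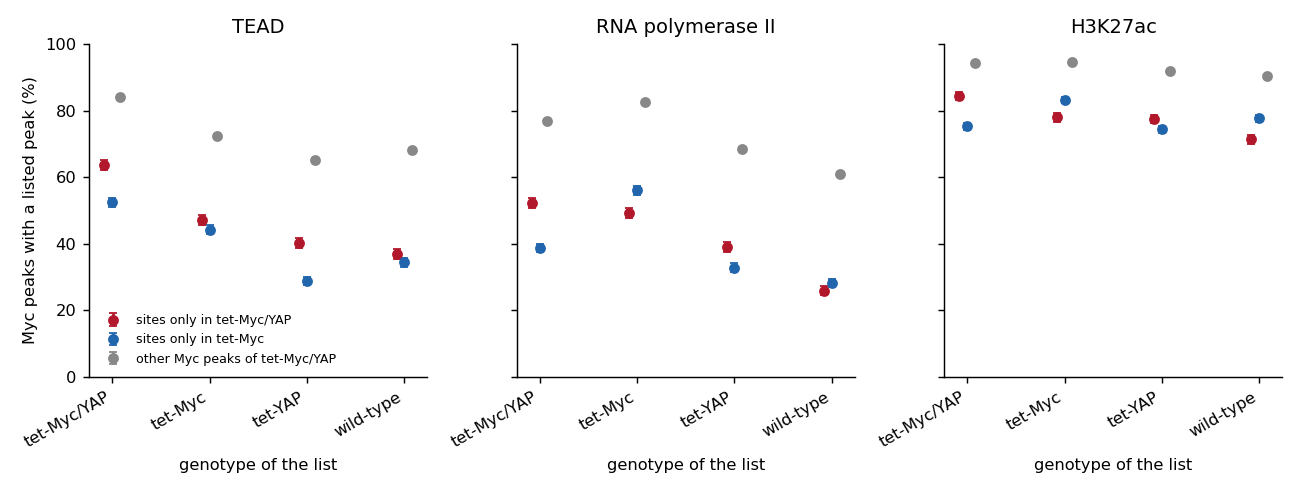
Share of Myc peaks (%, points with Wilson 95% intervals, most smaller than the point) with TEAD, Pol II and H3K27ac in the list of each genotype, for the sites only in tet-Myc/YAP (red, 4202), the sites only in tet-Myc (blue, 5598) and the other Myc peaks of tet-Myc/YAP (grey, 26125). Each private set had more H3K27ac and more Pol II in its own genotype than the other private set did there, and TEAD of tet-YAP was at 40.2% of the red set and 28.7% of the blue.

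Most of the sites lay in chromatin that was acetylated in every genotype. H3K27ac of tet-Myc/YAP covered 3545 sites (84.4%, against 94.2% of the other Myc peaks and 92.8% of all), and wild-type H3K27ac covered 71.4%, against 90.4% of the other Myc peaks and 87.8% of all. In between were tet-Myc (78.0%, against 92.3% of all) and tet-YAP (77.6%, against 89.8% of all). The mark was there in all 4 genotypes at 2788 sites (66.3%, against 84.3% of all Myc peaks) and in none at 506 (12%, against 4.41% of all).

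New H3K27ac, meaning a region of tet-Myc/YAP that shared no base with an H3K27ac region of the 3 other genotypes, was rare but more frequent at the sites. It held 163 sites (3.88%, 3.34 to 4.51%), against 155 of the other Myc peaks (0.593%) and 1.05% of all Myc peaks. The ratio was 6.54 (5.26 to 8.13) crude, 6.80 over fold classes, 5.02 over width classes and 5.73 (4.39 to 7.48) over both. These ratios count all peaks of each set. H3K27ac was in all 4 genotypes at 87.2% of the other Myc peaks, against 66.3% of the sites, and could then hardly be new. It overlapped the peak in tet-Myc/YAP only at 176 sites and 159 other Myc peaks, and in no genotype at 506 and 832. Among peaks without H3K27ac in the 3 other genotypes, the excess at the sites was thus much smaller than these ratios. Of the sites only in tet-Myc, 28 (0.500%) lay in the new regions of tet-Myc/YAP. In the regions new in tet-Myc lay 132 (2.36%) of them, against 0.470% of the other Myc peaks of tet-Myc. Those regions held 15 (0.357%) of the sites only in tet-Myc/YAP and 0.458% of all Myc peaks of tet-Myc/YAP. Private Myc and new H3K27ac therefore went together within each of the livers with induced Myc. Taking regions absent from wild-type alone, the share was 13.0% of the sites, against 5% of the other Myc peaks.

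TEAD of tet-Myc/YAP was more common at the 163 sites in new H3K27ac than at the sites as a whole (63.7%). Its share there was about that of all Myc peaks. YAP of tet-Myc/YAP was less common at the 163 than at all Myc peaks, and about as common as at the sites as a whole. TEAD was at 136 of the 163 in tet-Myc/YAP (83.4%, 77.0 to 88.4%), 104 in tet-Myc (63.8%) and 83 in tet-YAP (50.9%), against 69 in wild-type (42.3%), and only in tet-Myc/YAP at 25 (15.3%), beside 81.3%, 68.9%, 61.8%, 63.8% and 6.96% of all Myc peaks. YAP of tet-Myc/YAP was at 17 (10.4%, 6.61 to 16.1%, against 9.23% of all the sites and 33.9% of all Myc peaks) and YAP of tet-YAP at 10 (6.13%, against 1.85% of all Myc peaks). At the 155 other Myc peaks in new H3K27ac, TEAD of tet-Myc/YAP was at 74.2% (66.8 to 80.4%) and YAP of tet-Myc/YAP at 3.87% (1.79 to 8.19%), with intervals that overlap those of the 163. In wild-type, 92 of the 163 lay in no mark (56.4%), 40 were distal and 31 lay in H3K4me3. As new regions share no base with wild-type H3K27ac, the share in no mark follows in part from the rule. Pol II was at 38 of the 163 in tet-Myc/YAP (23.3%, against 73.4% of all Myc peaks), 24 in tet-Myc and 13 in tet-YAP, against 11 in wild-type.

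Seen from the regions, 159 of 920 new H3K27ac regions held a site (17.3%, 15 to 19.9%), against 13.6% of all 21854 H3K27ac regions of tet-Myc/YAP, and 150 of the 159 held no other Myc peak. The other Myc peaks were in 152 of the 920 (16.5%), against 67.1% of all 21854. New regions thus held a site slightly more often than all regions, and the other Myc peaks far less often. New regions were shorter, with a median of 3282 bp against 5946 bp for all, and those with a site had a median of 4068 bp, against 3244.5 bp for those without Myc. TEAD of tet-Myc/YAP was in 143 of the 159 (89.9%), against 355 of the 618 new regions without Myc (57.4%). YAP of tet-Myc/YAP was in 18 of the 159 (11.3%, 7.28 to 17.2%), against 6 of the 618 (0.971%, 0.446 to 2.10%). Pol II was in 27.7%, against 10.4%. Regions with a site also had more of all 3 among all H3K27ac regions of tet-Myc/YAP, with TEAD in 91.7% of the 2977 that held a site, against 58.3% of the 6043 without Myc, YAP in 46.0%, against 5.46%, and Pol II in 79.7%, against 27.7%. New regions with a site thus had TEAD about as often as all regions with one, and YAP and Pol II less often. Longer regions have more room for a peak of any kind, and the part of length in these differences was not tested.

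The sites were less often at promoters than the other Myc peaks. A wild-type H3K4me3 region, called promoter-like here, held 2089 sites (49.7%, against 69.3% of the other Myc peaks and 66.6% of all). The ratio was 0.717 (0.695 to 0.740) crude, 0.850 over fold classes, 0.912 over width classes and 0.926 (0.893 to 0.960) over both, so most of the difference was not seen within classes. A further 1616 sites (38.5%, against 28.1% and 29.6%) lay in wild-type H3K27ac or H3K4me1 without H3K4me3, called distal. The excess of distal sites was no longer seen within classes, with a ratio of 1.37 crude, 1.01 over fold classes and 0.930 over fold and width classes. The 497 sites in none of these wild-type marks, called unmarked, were 11.8% of the sites, against 2.58% of the other Myc peaks and 3.86% of all. The ratio was 4.58 crude and 2.41 (2.14 to 2.71) over both classes.

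Partners differed by position. YAP of tet-Myc/YAP was at 9.29% of promoter-like, 10.1% of distal and 6.04% of unmarked sites, beside 44.9%, 23.4% and 4.89% of the other Myc peaks. TEAD was at 55.5%, 76.4% and 57.1%, beside 85.6%, 83.7% and 51.0%. New H3K27ac was at 1.48%, 2.48% and 18.5% (15.3 to 22.2%), beside 0.331%, 0.762% and 5.78%. Part of this difference by position follows from the definitions. New regions share no base with wild-type H3K27ac, and unmarked sites lie in none of it, whereas 82.0% of promoter-like sites overlap it. At the 497 unmarked sites H3K27ac was called at 206 in tet-Myc/YAP (41.4%), 70 in tet-Myc (14.1%) and 85 in tet-YAP (17.1%), and Pol II at 85 in tet-Myc/YAP (17.1%), 57 in tet-Myc (11.5%) and 27 in tet-YAP (5.43%), against 9 in wild-type (1.81%). Both were thus called at more unmarked sites in tet-Myc/YAP than in the other livers. At the 675 unmarked other Myc peaks, H3K27ac was at 29.6% in tet-Myc/YAP, 26.5% in tet-Myc and 17.6% in tet-YAP, and Pol II at 15.7%, 16.3% and 9.19%, against 5.33% in wild-type. At 242 of the 497 (5.76% of the sites, against 2.02% of all Myc peaks) no genotype had H3K27ac or H3K4me3.

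Pol II was at 52.2% of the sites in tet-Myc/YAP, 49.3% in tet-Myc and 39.1% in tet-YAP, against 25.8% in wild-type, beside 76.8%, 82.6%, 68.6% and 61.1% of the other Myc peaks and 73.4%, 78%, 64.5% and 56.2% of all. Pol II in tet-Myc/YAP only was at 262 sites (6.24%, 5.54 to 7.01%), against 1.59% of the other Myc peaks and 2.24% of all. Its ratio was 3.92 crude and 3.53 (2.97 to 4.2) over fold and width classes. These ratios count all peaks of each set. Pol II was in no genotype at 1641 sites (39.1%) and at 3599 of the other Myc peaks (13.8%), 416 of which had it in tet-Myc/YAP only. Among peaks without Pol II in any other genotype, the excess at the sites was thus much smaller. At the sites private to tet-Myc, Pol II in tet-Myc only was at 13.2%, against 5.46% of the other tet-Myc Myc peaks. The wild-type Pol II library was the shallowest, and the part of depth was not tested.

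H3K4me3 of tet-Myc/YAP was at 52.7% of the sites, against 68.7% of the other Myc peaks and 66.5% of all. This difference turned round within classes, with a ratio of 0.767 crude, 0.941 over fold classes, 1.02 (0.986 to 1.06) over width classes and 1.04 (1.01 to 1.08) over both. New H3K4me3 regions of tet-Myc/YAP, which shared no base with H3K4me3 of the 3 other genotypes, held 122 sites (2.90%, 2.44 to 3.46%), against 1.78% of the other Myc peaks and 1.93% of all. Of the 122, 105 had TEAD of tet-Myc/YAP (86.1%, against 94.0% of the 464 other Myc peaks in these regions and 81.3% of all Myc peaks) and 21 had YAP (17.2%, against 35.1% of the 464 and 33.9% of all). Pol II was called at 74 in tet-Myc/YAP (60.7%), 39 in tet-Myc (32.0%) and 30 in tet-YAP (24.6%), against 9 in wild-type (7.38%), beside 72.2%, 73.9%, 42.5% and 25% of the 464 and 73.4%, 78%, 64.5% and 56.2% of all. Of these sites 86 were distal and 36 unmarked, against 29.6% and 3.86% of all Myc peaks. That none was promoter-like follows from the rule, as new H3K4me3 regions share no base with wild-type H3K4me3. Of all Myc peaks 66.6% were promoter-like, so their distal and unmarked shares are not a like comparison.

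Many sites lay close to Myc of another genotype. The gap to the nearest Myc peak of the 3 other genotypes had a median of 4597 bp. It was below 1000 bp at 1132 sites (26.9%) and at least 20000 bp at 1051 (25%). Near sites were promoter sites in the main, with 77.3% in wild-type H3K4me3 and 98.2% in H3K27ac of tet-Myc/YAP. Of the 2089 promoter-like sites, 1221 (58.4%) shared their H3K4me3 region with another Myc peak of tet-Myc/YAP. Remote sites were more mixed, with 39.0% in wild-type H3K4me3, 31.9% distal and 29.1% unmarked. Of them, 62.9% lay in H3K27ac of tet-Myc/YAP and 9.32% in new H3K27ac. Below 1000 bp, 0.618% were unmarked and 0.795% in new H3K27ac. The share in wild-type H3K4me3 was lowest, at 31.5%, for gaps of 5000 to 20000 bp. YAP hardly varied with the gap, from 8.75% of the near to 10.3% of the remote sites, with overlapping intervals.

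**Figure D5:**
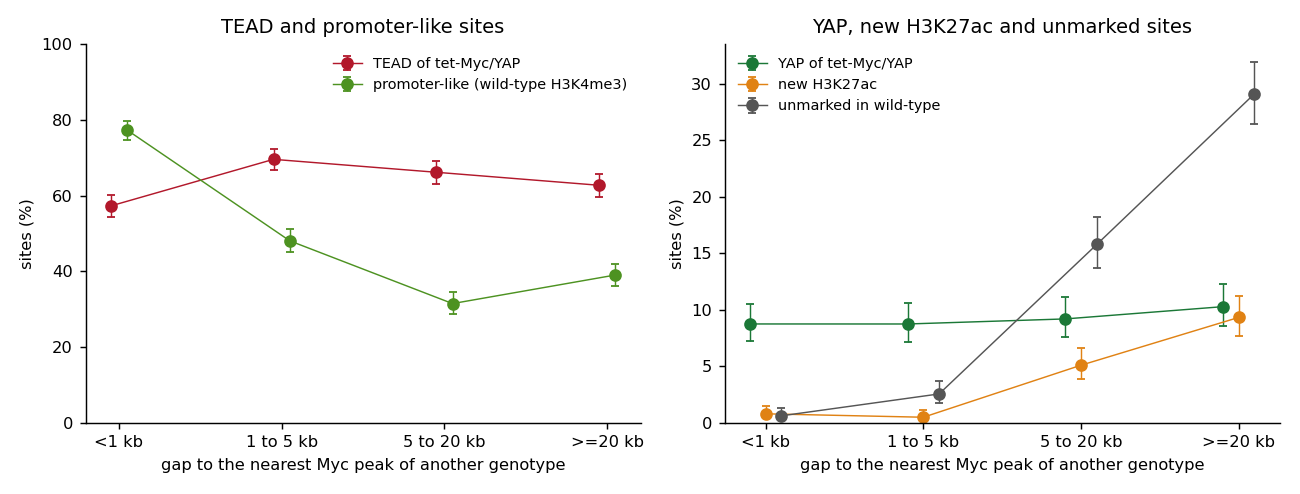
Share of the sites (%, points with Wilson 95% intervals) with TEAD of tet-Myc/YAP or wild-type H3K4me3 (left) and with YAP, new H3K27ac or no wild-type mark (right), by the gap to the nearest Myc peak of another genotype. The share of promoter-like sites was 77.3% below 1 kb and 39.0% at 20 kb or more, unmarked sites were 0.618% and 29.1%, new H3K27ac 0.795% and 9.32%, and YAP stayed between 8.74% and 10.3%.

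Where partners overlapped, their summits lay close to that of Myc. The median distance from the Myc summit was 118 bp to the TEAD summit at 2677 sites, against 149 bp at the other Myc peaks, and 125 bp to the YAP summit at 388 sites, against 134 bp. TEAD summits lay within 100 bp at 44.0% of the sites with TEAD (42.1 to 45.9%), against 36.6% of the other Myc peaks with TEAD. The sites were narrower, which limits how far apart overlapping summits can lie, and the part of width was not tested.

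The strongest sites by −log10 q included a kind with Pol II but no TEAD and a kind with strong TEAD. The strongest of all, at chr8:127536234-127537457, had a fold enrichment of 42.53 and a pileup of 137 tags. It had no TEAD, no YAP and no H3K27ac or H3K4me3 in any genotype, but Pol II in tet-Myc/YAP (fold 16.1) and tet-Myc (12.1). The same pattern was found at chr17:8137812-8139061 (Myc fold 29.9, Pol II 21.5 in tet-Myc/YAP and 22.0 in tet-Myc) and at chr17:5892943-5894122 (Myc 19.9, Pol II 6.28 and 8.10), and the nearest Myc peak of tet-Myc was 47228 to 325886 bp away from these 3 sites. Of all sites, 366 (8.71%, against 7.69% of all Myc peaks) had Pol II in tet-Myc/YAP and tet-Myc only.

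Sites with strong TEAD stood beside them. At chr19:34626161-34627330, in H3K4me3 and H3K27ac of all 4 genotypes, Myc had a fold of 28.1, YAP of 6.21, and TEAD of 71.1 in tet-Myc/YAP, 13.9 in tet-Myc and 18.0 in tet-YAP, against 11.9 in wild-type, while Pol II was called in tet-Myc/YAP alone (16.9). At chr2:167691921-167692769, a distal site, Myc had a fold of 18.3, YAP of 7.84 in tet-Myc/YAP and 14.6 in tet-YAP, TEAD of 70.8, 38.8, 19.5 and 14.3 in the same order of genotypes, and Pol II was again called in tet-Myc/YAP alone (6.74). At chr14:71058334-71059484, in H3K4me3, Myc had a fold of 18.8, YAP of 6.88 and TEAD of 32.9, 6.02, 10.5 and 5.61. All 3 had TEAD in every liver.

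Among sites with TEAD and no YAP, that at chr18:12201462-12202322 (Myc fold 22.6, TEAD 11.8) and that at chr2:101823303-101824027 (20.7 and 8.78) had TEAD in tet-Myc/YAP only and no Pol II. The strongest site in new H3K27ac was at chr7:51950584-51951212, within the new region chr7:51946293-51957513. Its Myc fold was 18.1, its TEAD fold 13.1 in tet-Myc/YAP and 4.40 in tet-YAP with no call in tet-Myc or wild-type, and its H3K4me3 and Pol II (6.23) were called in tet-Myc/YAP only. At chr15:89153324-89154148, in the new region chr15:89152785-89154669, Myc (13.2), TEAD (8.19) and H3K4me3 were likewise called in tet-Myc/YAP only. At chr6:88874637-88875334, in the new region chr6:88872011-88877497, TEAD was in all 4 lists (45.6, 15.6, 12.8 and 8.07) and YAP in both (6.12 in tet-Myc/YAP and 6.50 in tet-YAP), with no Pol II. The site at chr5:139860394-139861067 (Myc fold 18.2), 676 bp from a tet-Myc peak, was promoter-like, with TEAD, Pol II, H3K27ac and H3K4me3 in every genotype.

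The 32 sites with a −log10 q of at least 40 were of several kinds. TEAD of tet-Myc/YAP was at 26 (81.3%) and YAP of tet-Myc/YAP at 11 (34.4%, 20.4 to 51.7%), close to the shares of all Myc peaks (81.3% and 33.9%) and below those of the 8981 other Myc peaks of that q (92.8% and 60%). YAP of tet-YAP was at 9 (28.1%, 15.6 to 45.4%), against 2.62% of the other Myc peaks of that q and 1.85% of all. In wild-type 14 of the 32 were unmarked (43.8%, against 0.969% and 3.86%), 9 promoter-like (28.1%, against 83.3% and 66.6%) and 9 distal. New H3K27ac held 4 of them. Pol II was called at 19 in tet-Myc/YAP (59.4%, against 90.9% and 73.4%), 11 in tet-Myc and 7 in tet-YAP, against 3 in wild-type.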

How the data were processed

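Liver ChIP-seq lists of 23 libraries were used, 1 per antibody and genotype, grouped by title. An input sample without a list was not analysed here. The submitters' processing notes name the mm9 build, the aligner BWA 0.6.2, SAMtools and the peak caller MACS2 2.0.9. Peaks were called per library, with a p-value cutoff of 1.00e-05 in the narrow lists. For every narrow peak the authors deposited −log10 p, −log10 q, a fold enrichment over control (a ratio) and the summit's pileup signal. Broad regions were deposited with a score of unstated scale, which was not used, and no depth of these libraries was used.

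An overlap was 1 shared bp or more. Overlaps were found in Python 3.11.15 (pandas 2.3.3, numpy 2.4.6), tested on simulated data and against bedtools 2.31.1. Shares carry Wilson 95% intervals (scipy 1.17.1). Ratios were pooled by Mantel-Haenszel over 6 Myc fold classes (edges 6, 7, 8, 10 and 15) and 5 width classes (edges 400, 500, 600 and 800 bp). Folds were compared within a list, and set side by side across genotypes without a test. Named sites were the top 3 by −log10 q (ties by fold, then position) of all sites and of 6 classes, and the 3 nearest each side of the rule; the sites with −log10 q of at least 40 were singled out after values were seen. Members, lists and rules were chosen with earlier results of these data known. Comparisons with TEAD in tet-Myc/YAP only and with sites private to tet-Myc, and other overlap and q rules for YAP of tet-YAP, were added after the lists were examined. Alternatives were other overlap rules, −log10 q of at least 10, lists of equal length, a 1000 bp gap and left-out lists. Gene names and sequences were not used, as no mm9 annotation was at hand. Figures were drawn with matplotlib 3.10.9.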

Additional observations from a re-analysis of the deposited data

How the results depend on the processing

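The number of sites was 4202. It was 2122 with only tet-Myc/YAP peaks of −log10 q of at least 10, and 1698 (12.8% of the list) with the Myc lists other than wild-type cut to the length of the tet-YAP list. Under the other 5 rules it was 3070 to 4839. The YAP share of 9.23% was 7.43% with the Myc summit inside the YAP peak, 3.55% with YAP peaks of −log10 q of at least 10 and 10.6% with Myc peaks of that q. The TEAD share of 63.7% was 56.9% with the summit inside, 56.4% with stricter TEAD peaks, 47.4% with TEAD lists of equal length, 65.9% with stricter Myc peaks and 66.1% without sites within 1000 bp of another Myc peak. The new H3K27ac share of 3.88% was 13.0% with regions absent from wild-type alone and 5.02% without sites within 1000 bp. The promoter-like share of 49.7% was 52.7% with H3K4me3 of tet-Myc/YAP. Ratios over fold classes, width classes and both were 0.436, 0.523 and 0.578 for YAP (0.244 crude) and 0.830, 0.892 and 0.890 for TEAD (0.757 crude), and the ratio for new H3K27ac was 5.02 over width classes (6.54 crude). The ratio for distal sites turned to 0.959 over width classes and 0.930 over both, and was 1.01 over fold classes (1.37 crude). In each alternative above that gives one of these shares or ratios, the sites had less YAP, less TEAD of tet-Myc/YAP or more new H3K27ac than the other Myc peaks. These shares were not computed under the rules run only for the number of sites, among them Myc lists of equal length. Alternatives added after seeing the data were those on the share with YAP of tet-YAP, those on the share with TEAD in tet-Myc/YAP only, and the classes of fold and width together. No paired analysis was possible because each group had 1 library, and no replicate could be left out for the same reason. Peaks near the calling cutoff may be missed in a shallower library. The share of the 4202 sites that a second library of any genotype would move was not measured, and the lists cannot show it.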

Other observations

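Private Myc peaks were unevenly spread over the chromosomes. On the X chromosome 109 of 456 Myc peaks of tet-Myc/YAP were sites (23.9%, 20.2 to 28.0%), against 4086 of 29830 (13.7%, 13.3 to 14.1%) on the autosomes. Of the tet-Myc Myc peaks, 70 of 434 on X were private to tet-Myc (16.1%), against 17.2% on the autosomes. The X sites were mostly promoter-like (70.6%, against 49.2% of the autosomal sites). YAP of tet-Myc/YAP was at 1 of the 109 (0.917%, 0.162 to 5.01%), against 9.47% of the autosomal sites. Of all 11719 YAP peaks of tet-Myc/YAP, 36 lay on X (0.307%, 0.222 to 0.425%). YAP peaks were thus few on X as a whole, so the low share is not shown to be particular to the X sites. X held 456 Myc peaks of tet-Myc/YAP, 434 of tet-Myc, 73 of tet-YAP and 76 of wild-type, and 1.54%, 1.36%, 0.831% and 0.925% of the TEAD peaks in the same order. The sex of the mice is not given in the labels, and its part in these values was not tested.

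Some sites lay in runs. Chained at up to 20000 bp, the sites formed 3488 groups, of which 545 held more than 1 site (1259 sites in all) and 32 held at least 4. The largest run, chr7:97168120-97215084, held 8 sites and 3 other Myc peaks. All 8 sites lay in H3K27ac of tet-Myc/YAP, 7 had TEAD and 1 had YAP.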
